A study of Mus musculus with 6 samples.

Results

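H19, Igf2, Dlk1, Meg3, Cdkn1c, Peg3, Mest, Grb10, Plagl1 and Ndn are 10 imprinted genes of the fetal growth network, and they were taken by symbol from the 17132 genes of a table of cleavage and polyadenylation sites (pAs). The table has 39 entries for these genes, of which 38 are pAs in the 3'-most exon and 1 is an intronic pA of Meg3 with 2 reads in all. No pA of the 10 genes was assigned to a second gene. The pAs were mapped by 3'READS, which sequences RNA from its 3' end, in whole testis of FVB mice without genetic or drug treatment. There was 1 library each at 1, 2, 3, 4, 5 and 6 weeks after birth (1w to 6w), and the sources used here do not say how many animals gave RNA to a library. A level is given as RPM, the reads of a gene in its 3'-most exon per 1000000 poly(A) site-supporting (PASS) reads that the study lists for the library.

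An imprinted gene is transcribed mainly from the copy inherited from 1 parent. Reads were not split by parental copy here, so whether a gene called imprinted was so in testis was not tested. Igf2 encodes a fetal growth factor, and H19, its neighbour, is a noncoding RNA made from the maternal copy and a host of a microRNA. Dlk1 encodes a membrane protein of the Notch ligand family that holds back differentiation, and Meg3 is the maternally expressed noncoding RNA beside it. Cdkn1c encodes p57, an inhibitor of cyclin-dependent kinases, and Grb10 encodes an adaptor that dampens signaling from the insulin and IGF receptors, so both are known as restrainers of growth. Plagl1 encodes a zinc finger transcription factor placed upstream of several imprinted genes, Peg3 another zinc finger protein, Ndn the growth-suppressing protein necdin, and Mest a hydrolase-like membrane protein. The network is known for high levels in fetal tissues and for silencing in most organs after birth.

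The sequence upstream of a pA carries the polyadenylation signal, most often AATAAA or ATTAAA. The 30 bases that end at the pA, 5' to 3' on the gene's strand in mm9, are shown for the pAs on which the isoform results turn, with AATAAA in capitals (the copy nearest to the pA where there are 2), first for Cdkn1c and then for Grb10.
Cdkn1c pA at 196 nt after the stop codon (chr7:150644736-150644765, minus strand): attgagaacactctgtaccatgtgcaagga
Cdkn1c pA at 234 nt (chr7:150644698-150644727, minus strand): gtcccaaggtgtaaagctttaaatcattta
Cdkn1c pA at 688 nt (chr7:150644244-150644273, minus strand): gttctaAATAAAgaggcccaacaaaaatca
Grb10 pA at 342 nt (chr11:11833124-11833153, minus strand): gattggaaatgaactcttgccctggaataa
Grb10 pA at 374 nt (chr11:11833092-11833121, minus strand): ttgacaattcaaaccgcgatgtttactttt
Grb10 pA at 2955 nt (chr11:11830511-11830540, minus strand): gttattagaaataaacattAATAAAgcgtt

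In both genes the distal pA had AATAAA in these bases and the proximal pAs shown had neither AATAAA nor ATTAAA, also when the window was widened to 50 bases. A further Grb10 pA at 637 nt, with 3 reads in all, had AATAAA. Distances are counted along the spliced transcript, which in Cdkn1c leaves out an intron in the 3'UTR. For the genes that fell, the same bases of the most used pA are shown to compare them with these.
H19 (chr7:149761436-149761465, minus strand): tgggtccatcAATAAAtacagttacagtca
Igf2 (chr7:149836673-149836702, minus strand): cgcaaacctAATAAAgcatttaaaatacta
Dlk1 (chr12:110698803-110698832, plus strand): aataataataataagaatttcatctctaaa
Mest (chr6:30698433-30698462, plus strand): tctattAATAAAaacaaactgtgacaaaaa
Plagl1 (chr10:12851471-12851500, plus strand): tacatatAATAAAtgctaagcatctggcaa
Ndn (chr7:69494785-69494814, plus strand): ccataAATAAAcgttaaaatgagcattaaa

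Of these 6 pAs, only that of Dlk1 lacked both hexamers, in 30 as in 50 bases. Over all 38 pAs of the 10 genes, 13 had AATAAA in 30 bases and none had ATTAAA alone. Of their 14 pAs with 50 or more reads in all, 9 had AATAAA, which is 64.3%, beside 51.2% of the 17560 pAs of all genes with as many reads. Either hexamer was found in 64.3% and 66.9% of these, and over pAs of any read number AATAAA was found in 34.2% of those of the 10 genes and in 35.6% of all. The letters were searched on the transcribed strand only, and a missing hexamer says only that these letters are not in the window.

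Of the 10 genes, 7 had lower RPM in every 4–6 week library than in any 1–3 week library, beside 60.6% of the 11269 genes tested. Summed over the 10 genes, the level in the 6 libraries, in order of age, was 2317, 943, 411, 141, 74.3 and 64.7 RPM. The genes thus held 0.232% of all PASS reads at 1w and 0.00647% at 6w. H19 alone made up 52.3% of the reads of the 10 genes at 1w and 12.4% at 6w.

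**Figure D1:**
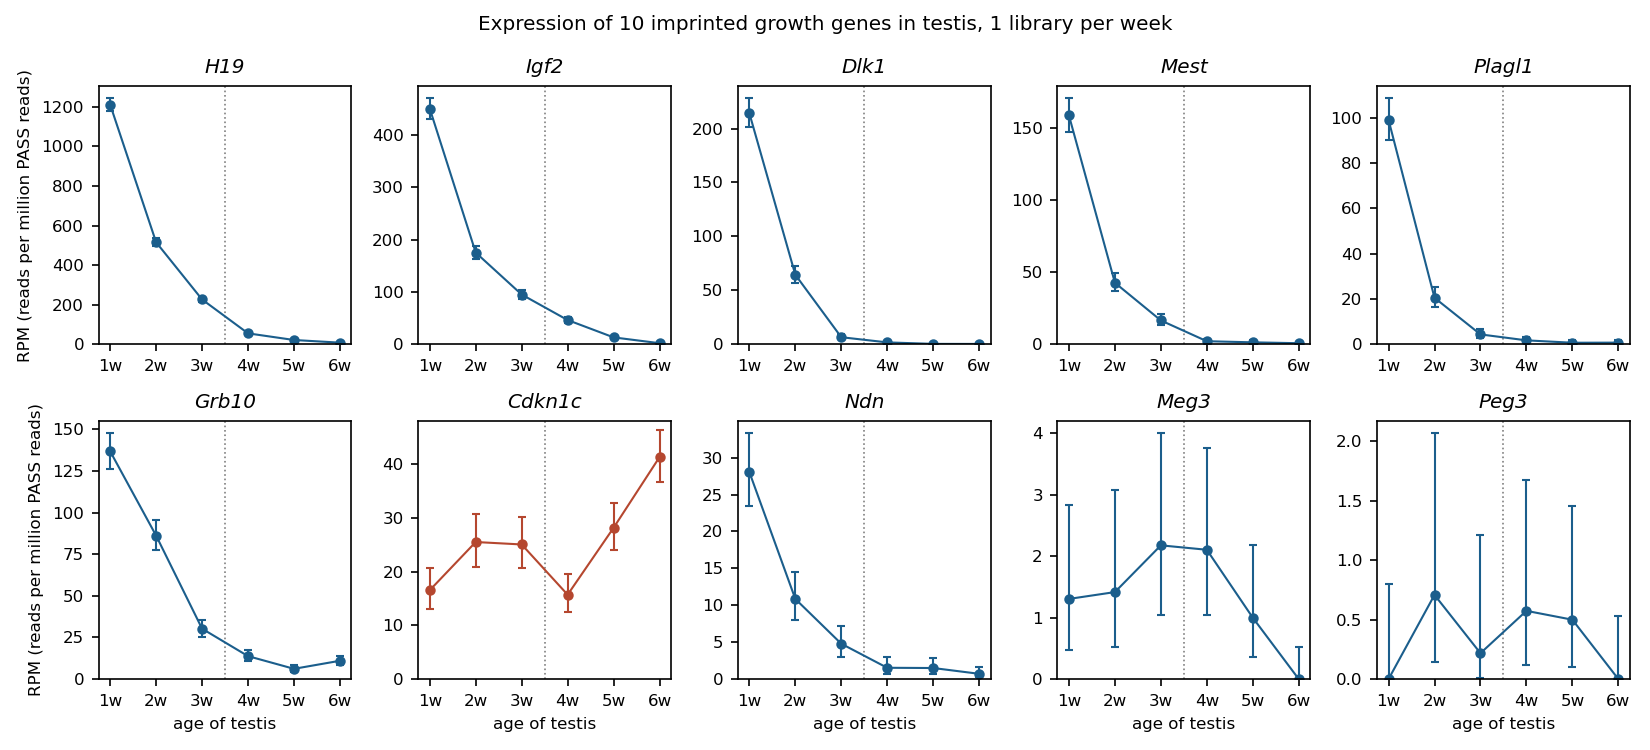
RPM of each of the 10 genes (y axis, linear, separate scale per gene) against age in weeks (x axis), 1 library per point, with exact 95% Poisson intervals that cover counting error only; the dotted line parts 1–3 week from 4–6 week samples. H19 went from 1212 to 8.0 RPM, Cdkn1c (red) had its highest value, 41.3 RPM, at 6w, and Meg3 and Peg3 stayed near the level of single reads.

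Libraries held 3497870 to 5427850 reads at pAs of a single gene, which was 77.0% to 83.3% of the PASS reads listed by the study. The 10 genes with most reads took 8.87% to 9.55% of 3'-most exon reads in 1–3 week samples and 21.6% to 34.5% in 4–6 week samples. The expression test was therefore scaled by TMM, which sets the median change of all genes to -0.07 on the log2 scale, and with the study's read totals in its place this median was -1.38. RPM follows the read totals, so that 60.6% of the 11269 genes tested had lower RPM in every 4–6 week library. On TMM-scaled counts this share was 33.9%, and the same 7 of the 10 genes were among them. Reads of protamine 1 (Prm1), a spermatid gene, numbered 796 at 1w and 108 at 2w, and at 1w and 2w no spermatids have formed yet. The part of such reads in the low counts of other genes was not tested.

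The first comparison asked which of these genes changed between 1–3 week and 4–6 week samples, the age groups of the study, with 3 libraries against 3. Of the 10 genes, 8 had enough reads to be tested. By edgeR's quasi-likelihood test, with adjusted p under 0.05 over all genes as the threshold, 6 of the 8 were called lower in 4–6 week samples (H19, Dlk1, Mest, Grb10, Plagl1 and Ndn), 1 was called higher (Cdkn1c) and 1 was not called (Igf2). Over all genes tested, 22.5% were called lower and 17.7% higher. The median log2 change was -2.83 in the 8 genes and -0.07 in all genes. The spread within a group holds the change with age inside that group as well as the error of a library, since no week was repeated. These calls also rested on single libraries, as 3 of the 8 were called lower without 1w, 1 without 2w, 7 without 3w, 1 without 4w and 0 without 5w or without 6w. At an unadjusted p under 0.05 the last 2 fits had 5 each. Over all genes, edgeR called 1294 of 11583 lower without 1w, 215 of 11512 without 2w and 4123 of 12252 without 3w. It called 522 of 12236 lower without 4w, 0 of 12246 without 5w and 12 of 12217 without 6w. The counts among the 8 genes are to be read against these.

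**Figure D2:**
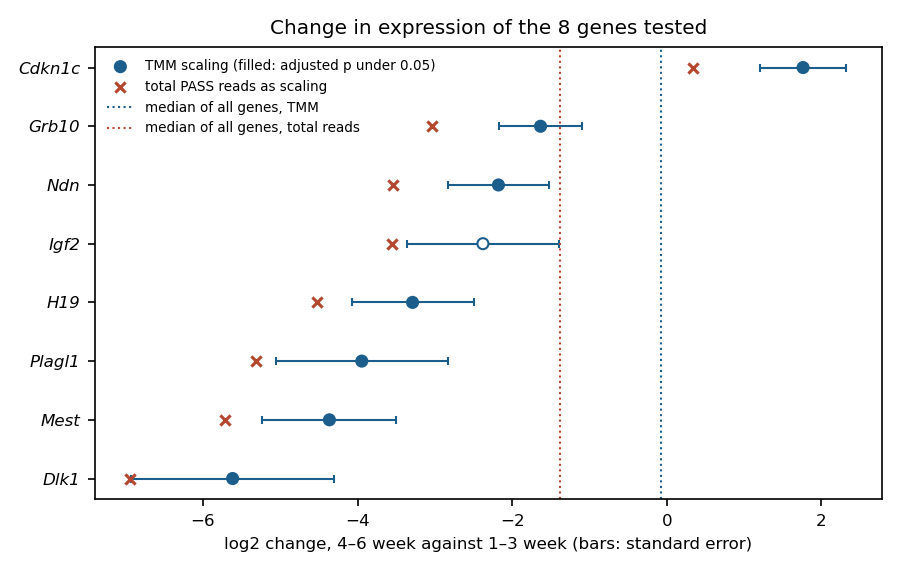
Log2 change of the 8 genes tested, 4–6 week against 1–3 week samples (x axis), by edgeR with TMM scaling (circles, filled where adjusted p was under 0.05, bars showing the standard error) and with total PASS reads as scaling (crosses); dotted lines mark the median of all genes under each scaling. All genes but Cdkn1c lay below both medians, from -1.63 for Grb10 to -5.62 for Dlk1 with TMM scaling.

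H19 and Igf2 share an imprinted domain on chromosome 7, where their last pAs lie 75237 nt apart. H19 (chr7:149761434-149764048, minus strand) had 1 pA, 2 nt before the annotated end of the gene. Its reads numbered 5572, 2185, 1040, 288, 129 and 56 from 1w to 6w. Each week lay below the week before, and the 2 age groups did not overlap. In RPM this was a fall from 1212 to 8.0, and the rank of H19 among all genes moved from 64 at 1w to 5321 at 6w. The log2 change was -3.29 ± 0.79 (SE, n = 3 and 3 libraries, edgeR, adjusted p = 0.0238). The step from 3w to 4w was 4.11-fold (95% counting interval 3.60 to 4.70), and the other weekly steps were 2.28-fold to 2.68-fold.

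Igf2 (chr7:149836673-149852721, minus strand) had 2073, 743, 437, 242, 79 and 14 reads from 1w to 6w. The level thus fell at every step, from 451 RPM to 2.00 RPM, and the 4–6 week libraries all lay below the 1–3 week libraries. The log2 change was -2.38 ± 0.98 (SE, n = 3 and 3 libraries), which did not pass the threshold (edgeR, adjusted p = 0.0886). Within both age groups Igf2 kept falling, from 46.3 RPM at 4w to 2.00 at 6w, and this fall counts as spread in the test. With age in weeks as a numeric term, the change was -1.0 per week on the log2 scale (edgeR, adjusted p = 0.00439), and the change was also called by DESeq2 (adjusted p = 0.0487), with total PASS reads as scaling (0.0232), without 3w (0.0141) and between 1w–2w and 5w–6w (0.00184). Over the 12 alternatives its adjusted p ranged from 0.00184 to 0.240. The reads of H19 were 2.69, 2.94, 2.38, 1.19, 1.63 and 4.0 times those of Igf2 in the 6 libraries by age. The last ratio rests on 14 Igf2 reads, and the difference in course between the pair was not tested.

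Nearly all Igf2 reads ended at the last pA, 3048 nt after the stop codon. The more proximal pA (Prx-pA, the upstream of the 2 pAs with most reads) at 444 nt had 18 reads at 1w, 0 from 2w to 5w and 3 at 6w. The distal pA (Dis-pA) went from 2055 reads in the 1w library to 11 in the 6w library. The Dis-pA share of both was 99.1% at 1w and 78.6% at 6w, and the latter rests on 14 reads (Wilson 95% interval 52.4% to 92.4%). Pooled over libraries the shares were 99.4% in 1–3 week and 99.1% in 4–6 week samples. Igf2 had too few reads at 6w for the test of the ratio.

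Dlk1 had the steepest fall of the 8 genes tested. Dlk1 (chr12:110691033-110701546, plus strand) had 985, 273, 30, 9, 2 and 2 reads from the youngest to the oldest library. Much of the fall came before 3w, from 214 to 6.53 RPM, and the step from 2w to 3w was 9.87-fold (95% counting interval 6.75 to 14.9). The log2 change between age groups was -5.62 ± 1.32 (SE, n = 3 and 3 libraries, edgeR, adjusted p = 0.0227). The size of this change leans on 13 reads in the 3 older libraries.

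Dlk1 was also the gene with the most scattered use of pAs among the 8 genes in 1–3 week samples. Of its 1288 reads in 1–3 week samples, 69.5% ended 262 nt after the stop codon, 10.8% at 154 nt, 7.14% at 1621 nt and 11.6% at the last pA, 2976 nt. The share of the main pA was 69.4% at 1w and 70.7% at 2w. Among reads of the main pA and the last pA, the latter took 14.3% at 1w and 14.6% at 2w. With 3 reads of both pAs at 4w and fewer after that, no later share could be read.

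Meg3 (chr12:110779211-110809936, plus strand), whose annotated start lies 77665 nt after the end of Dlk1, was near the level of single reads. Its 8 pAs of the 3'-most exon had 6, 6, 10, 11, 6 and 0 reads from 1w to 6w, or at most 2.18 RPM. The 2 age groups overlapped, and Meg3 was left out by the filter on low counts. The last listed pA of Meg3 lies 3141 nt short of the annotated end of the gene in GENCODE M1, so reads at that end, if any, are not among those counted here.

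Cdkn1c was the only one of the 8 genes called higher, and the reads it gained ended at a short 3'UTR. Cdkn1c (chr7:150644255-150646955, minus strand) lies 807571 nt from Igf2, pA to pA. Its reads by age were 76, 108, 115, 82, 169 and 289. The log2 change was 1.76 ± 0.56 (SE, n = 3 and 3 libraries, edgeR with TMM scaling, adjusted p = 0.0456). With the study's read totals as scaling the change was 0.35 (adjusted p = 0.528), and the RPM of the age groups overlapped, from 16.5 to 25.5 in 1–3 week and from 15.7 to 41.3 in 4–6 week samples. Relative to the median of all genes the change was 1.84 with TMM and 1.73 with read totals. The call was lost without 1w (adjusted p = 0.107), without 2w (0.115), without 5w (0.117) and without 6w (0.147).

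Below the level of the gene, 2 isoforms of Cdkn1c crossed between 3w and 4w. The Dis-pA at 688 nt had 74, 108, 115, 19, 3 and 4 reads from 1w to 6w. The Prx-pA at 234 nt had 2, 0, 0, 62, 163 and 269 reads. The age groups did not overlap for either isoform, and they lay in opposite order. By gene, 60.6% of the 11269 tested had lower RPM in every 4–6 week library and 14.3% higher. These shares were not counted for single pAs. The third pA, at 196 nt, had 0 reads in 1–3 week samples, against 1, 3 and 16 in those of 4 to 6 weeks.

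In the 1w library 97.4% of Cdkn1c reads of both isoforms ended at the Dis-pA (Wilson 95% interval 90.9% to 99.3%), and in those of 2w and 3w 100% did. The limit that a count of 0 sets on the Prx-pA share was 2.78% for 2w and 2.61% for 3w. At 4w the Dis-pA share had dropped to 23.5% (15.6% to 33.8%). The 5w library had 1.81% (0.616% to 5.18%) and the 6w library 1.47% (0.571% to 3.71%). These intervals cover counting error only. When Dis-pA reads were tested against Prx-pA reads the gene was called lower in 4–6 week samples, in a fit over 4271 genes of which 34.5% were called lower (edgeR, log2 change -11.13, adjusted p = 2.4e-04). The adjusted p stayed under the threshold in all 9 alternatives, each library left out included, with the highest at 0.0198. The fitted size depends on how the 2 Prx-pA reads of 1–3 week samples are moderated. As counts, the odds of the Prx-pA were 2725 times higher in 4–6 week samples, with an exact 95% interval of 684 to 23826. The mean 3'UTR size of Cdkn1c transcripts, weighted by reads, was 676 to 688 nt in 1–3 week samples and then 339, 241 and 238 nt.

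**Figure D3:**
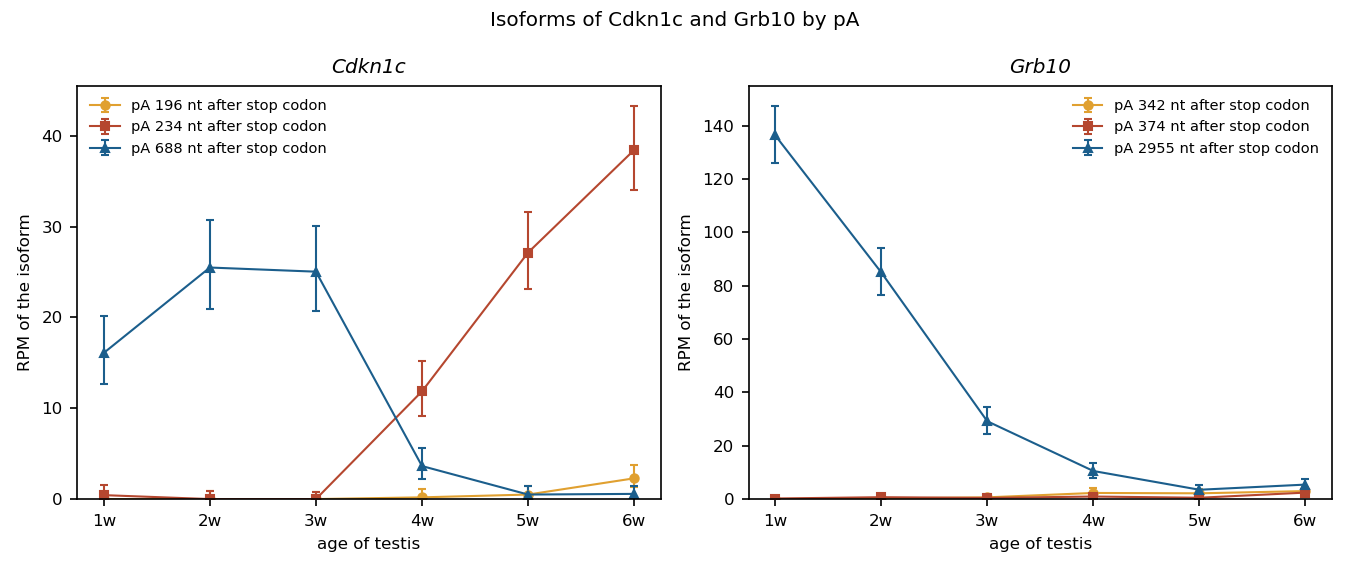
RPM of each 3'-most exon pA with 20 or more reads in all (y axis, linear from 0) against age in weeks (x axis) for Cdkn1c (left) and Grb10 (right), 1 library per point, with exact 95% Poisson intervals. In Cdkn1c the isoform ending at 688 nt fell from 25.0 RPM at 3w to 3.64 at 4w while that ending at 234 nt reached 38.4 RPM at 6w; in Grb10 the isoform ending at 2955 nt fell from 136 to 5.43 RPM and the 2 short isoforms reached at most 3.0 RPM.

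When each 3'-most exon pA was tested on its own, a test added after the data had been seen, both Cdkn1c isoforms were called. The Prx-pA isoform was higher in 4–6 week samples (edgeR, log2 change 8.63, adjusted p = 0.00375) and was called in all 7 alternatives, read totals as scaling included. In counts, its RPM was 182 times higher in 4–6 week than in 1–3 week samples, with a 95% counting interval of 50.1 to 1507. The Dis-pA isoform was lower, with a log2 change of -2.66 ± 0.66 (SE, adjusted p = 0.0223), and lost its call without 5w (0.101) and without 6w (0.114). Of 15906 pAs tested in this way, 22.3% were called lower and 21.2% higher. Among the 38 pAs of the 10 genes, 10 had reads enough to be tested, of which 7 were called lower, 2 higher, and 1, the last pA of Igf2, was not called.

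Grb10 fell as a gene, while its isoform ending at 342 nt rose in share and in level. Grb10 (chr11:11830511-11938686, minus strand) had, in order of age, 629, 365, 139, 72, 37 and 77 reads. The level fell at each step until 5w and was 1.79-fold higher at 6w than at 5w (95% counting interval 1.19 to 2.72). The log2 change between age groups was -1.63 ± 0.53 (SE, n = 3 and 3 libraries), close to the threshold (edgeR, adjusted p = 0.0497), and it was not called without a filter on low counts (0.0546). It was also lost when any library but 3w was left out (0.101 to 0.179).

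The Dis-pA of Grb10, 2955 nt after the stop codon, had 627, 360, 134, 55, 21 and 38 reads from 1w to 6w. The Prx-pA at 342 nt had 0, 1, 3, 12, 13 and 21 reads. The 2 isoforms moved in opposite directions, and neither overlapped between age groups. By gene, 60.6% were lower and 14.3% higher in RPM without overlap, and these shares were not counted for single pAs. A second proximal pA, at 374 nt, had 1, 3, 2, 5, 3 and 17 reads.

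In 1–3 week samples the Dis-pA took 100%, 99.7% and 97.8% of the reads of both Grb10 isoforms, and the limit that the count of 0 sets on the Prx-pA share was 0.478% for 1w. The 4w library was at 82.1% (Wilson 95% interval 71.3% to 89.4%). The share was 61.8% in the 5w library (45.0% to 76.1%) and 64.4% in the 6w library (51.7% to 75.4%). The intervals of 5w and 6w overlap. Dis-pA reads relative to Prx-pA reads were called lower in 4–6 week samples (edgeR, log2 change -6.58 ± 0.98, adjusted p = 6.5e-04), and in all 9 alternatives (highest adjusted p 0.00738). The odds of the Prx-pA were 112 times higher in 4–6 week samples, with an exact 95% interval of 39.9 to 437. With all pAs before the last counted as proximal, their share of Grb10 reads was 0.318% at 1w and 50.6% at 6w (39.7% to 61.5%).

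Tested on its own, the Prx-pA isoform of Grb10 was higher in 4–6 week samples (edgeR, log2 change 4.28 ± 0.76, adjusted p = 0.00948). Its call was lost without 5w (0.0528) and without 6w (0.0638). The Dis-pA isoform was lower (log2 change -2.33 ± 0.58, adjusted p = 0.0224) and was lost without 4w (0.0660), 5w (0.108) or 6w (0.103). With read totals as scaling the Prx-pA isoform was still called higher, at 2.97 (adjusted p = 0.00769).

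**Figure D4:**
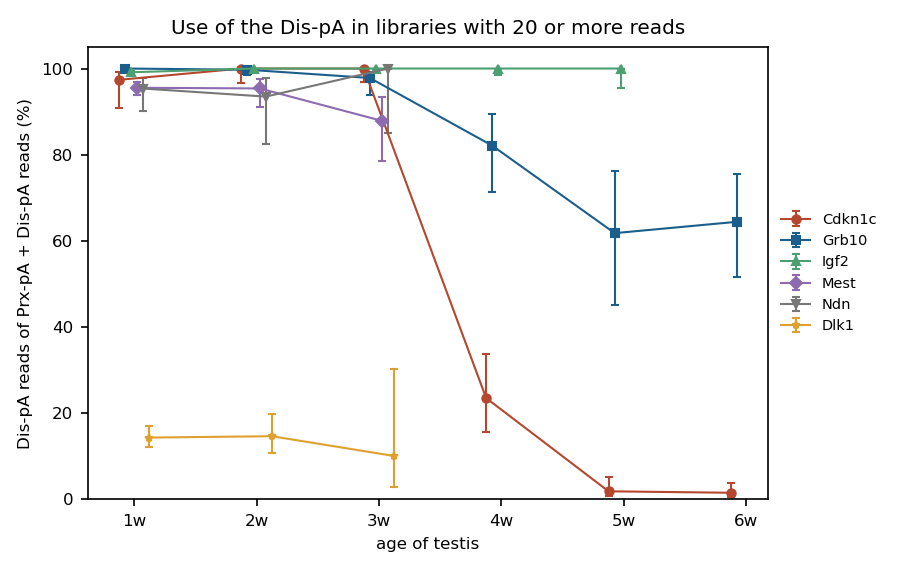
Share of Dis-pA reads among Prx-pA and Dis-pA reads (y axis, percent) against age in weeks (x axis) for 6 of the genes with 2 or more pAs, in libraries with 20 or more reads of both, with Wilson 95% intervals; points are set apart sideways for legibility. The share fell in Cdkn1c to 1.47% and in Grb10 to 64.4% at 6w, stayed at 99.1% or more in Igf2 through 5w, and was 10.0% to 14.6% in Dlk1 through 3w.

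The stretch between the 2 pAs, the alternative 3'UTR (aUTR), differed between these 2 genes. It was 2613 nt in Grb10, longer than in 90.4% of the 4271 genes with a tested ratio, and 454 nt in Cdkn1c, longer than in 46.5%. The median was 532 nt. The tetramer TTTT, with overlaps counted on the transcribed strand, was found 26.4 times per kb in the aUTR of Grb10 and 2.20 times in that of Cdkn1c, beside a median of 14.4. The share of T was 31.0% in Grb10 and 26.9% in Cdkn1c, with a median of 31.7%.

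Plagl1 (chr10:12810497-12851500, plus strand) fell early and used 1 pA in all libraries, at the annotated end of the gene. Its reads numbered 456, 87, 20, 9, 4 and 5 from 1w to 6w. The first 2 steps were the steepest, at 4.83-fold and 4.72-fold, and the levels from 4w to 6w, 0.666 to 1.72 RPM, had overlapping counting intervals. The log2 change was -3.95 ± 1.12 (SE, n = 3 and 3 libraries, edgeR, adjusted p = 0.0339).

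Mest (chr6:30673547-30698457, plus strand) had 731, 181, 76, 11, 8 and 5 reads by age. The steps from 1w to 2w (3.72-fold) and from 3w to 4w (7.86-fold, 95% counting interval 4.15 to 16.4) stood out. The log2 change was -4.36 ± 0.87 (SE, n = 3 and 3 libraries, edgeR, adjusted p = 0.0175). Most Mest reads ended 1293 nt after the stop codon, 5 nt beyond the last annotated base. The share of this pA over the pA at 833 nt was 95.5%, 95.4% and 87.8% in the 1–3 week libraries, the last with an interval of 78.5% to 93.5%, and the 24 reads of 4–6 week samples gave 91.7% (74.2% to 97.7%).

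Ndn (chr7:69493163-69494814, plus strand) was lower than these genes from the start. It had 129, 46, 22, 8, 9 and 5 reads, which is 28.1 RPM at 1w and 0.714 RPM at 6w. The log2 change was -2.18 ± 0.65 (SE, n = 3 and 3 libraries, edgeR, adjusted p = 0.0391). Of its reads in 1–3 week samples 95.4% ended at the distal pA at the annotated end of the gene, and all 22 reads of 4–6 week samples did (Wilson 95% interval 85.1% to 100%).

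Peg3 (chr7:6656603-6683132, minus strand) had 0, 3, 1, 3, 3 and 0 reads from 1w to 6w, too few to be tested. Its 4 reads of 1–3 week samples ended at the pA 868 nt after the stop codon and its 6 reads of 4–6 week samples at that 91 nt after it. The last listed pA lies 2746 nt short of the annotated end of Peg3, so a level of the gene cannot be read from these counts.

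By the size of the change, the genes called lower came in the order Dlk1, Mest, Plagl1, H19, Ndn and Grb10. The standard error of each overlaps that of its neighbour in this order, and differences between genes were not tested. By level at 1w the order was H19, Igf2, Dlk1, Mest, Grb10, Plagl1, Ndn and Cdkn1c, and at 6w Cdkn1c was the highest of the 10, at 41.3 RPM, ahead of Grb10 at 11 and H19 at 8.0. A 3'READS read marks 1 transcript end whatever the length of the transcript, so these levels can be set side by side. Meg3 and Peg3 are exceptions, since their listed pAs end short of the annotated end of the gene. Fewer cells of a type and less RNA per cell cannot be told apart in whole testis.

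Other imprinted genes were called in both directions with TMM scaling. Of 56 listed, 28 had reads enough to be tested, of which 8 were called lower, 3 higher and 17 neither, with a median log2 change of -0.43. With the study's read totals as scaling 17 were called lower and 0 higher (edgeR, 0 higher also at an unadjusted p under 0.05). Under that scaling 6183 of the 11269 genes tested were called lower and 1082 higher. The shares called lower and higher with TMM are to be read against the 22.5% and 17.7% of all genes. Among the 8 called lower, the 5 with the largest falls were Inpp5f (-2.89, adjusted p = 0.0173), Ppp1r9a (-2.23, 0.0200), Dcn (-2.20, 0.0179), Osbpl5 (-2.09, 0.0241) and Peg10 (-1.86, 0.0309). Dcn encodes the matrix proteoglycan decorin, and Inpp5f an inositol phosphatase. Ppp1r9a, an actin-binding scaffold, went from 278 RPM at 1w to 10.0 at 6w. Gatm, which encodes an enzyme of creatine synthesis, reached the highest level of this list, 525 RPM at 2w, and was at 30.4 RPM at 6w (log2 change -1.71, adjusted p = 0.0228). Zdbf2, also over 100 RPM in a library, went from 114 to 51.3 RPM and was not called (0.46, adjusted p = 0.248).

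The 3 imprinted genes called higher were Commd1 (2.16, adjusted p = 0.0261), Mcts2 (1.81, 0.0271) and Pon3 (1.17, 0.0321). With the study's read totals as scaling, none of the 3 was called, and Pon3 turned to -0.10. Relative to the median of all genes they were 2.25, 1.91 and 1.28 above it under that scaling. Summed over the other imprinted genes the level went from 1453 RPM in the 1w library to 257 in the 6w library, a 5.66-fold fall, beside 35.8-fold for the 10 genes. On TMM-scaled counts these falls were 1.69-fold and 10.7-fold.

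The IGF axis list holds receptors, IGF-binding proteins, signaling proteins, the ligand Igf1 and the Igf2 mRNA-binding family, and 13 of its 18 genes were tested. Of these 4 were called lower, 1 higher and 8 neither, with a median log2 change of -1.16. The shares of all genes tested were 22.5% lower and 17.7% higher. Igf1r, the receptor through which IGF2 drives growth, went from 94.8 RPM at 1w to 3.57 at 6w (log2 change -2.35 ± 0.51, adjusted p = 0.0202). Akt1, a kinase downstream of it, had a log2 change of -1.57 (adjusted p = 0.0365). Igf2bp1, which encodes a protein that binds Igf2 mRNA, had -1.43 (adjusted p = 0.0410), and Igfbp6, a binding protein that prefers IGF2, had -1.16 (adjusted p = 0.0393). Igf2bp3, of the same mRNA-binding family as Igf2bp1, was called higher (1.49, adjusted p = 0.0392). With read totals as scaling it was not called (0.15, adjusted p = 0.777). Igf2r, the imprinted receptor that clears IGF2, had 61, 27, 14, 6, 1 and 6 reads and was not called (-1.99, adjusted p = 0.0613).

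Summed Sertoli and peritubular markers were lower in 4–6 week samples, as were the genes that fell, and Leydig markers did not pass the test in that direction. From 1w to 2w the Sertoli sum went from 11624 to 11476 RPM and the peritubular sum from 7669 to 6115. The 10 genes went from 2317 to 943 RPM in that step. The Sertoli sum holds markers that moved in opposite directions there. Dhh went from 3693 to 1606 RPM, Amh from 63.9 to 17.9 and Sox9 from 83.1 to 47.9. Clu went from 1859 to 3362 RPM, Amhr2 from 1287 to 2191 and Cldn11 from 712 to 1212. The 14 Sertoli cell markers with reads summed to 5664 to 11624 RPM in 1–3 week and 1142 to 2360 RPM in 4–6 week samples. Of the 14, 8 were called lower, beside 22.5% of all genes tested called lower and 17.7% called higher. The 8 peritubular and mesenchymal markers summed to 2862 to 7669 RPM and 290 to 700 RPM, and 6 of the 7 tested were called lower. Among them Tcf21 had 4 reads at 1w and 0 in the other libraries. The 7 Leydig cell markers with reads summed to 467 to 498 RPM and 264 to 539 RPM, with 0 of 6 called lower and 1 higher (edgeR; 0 of the 6 were lower at an unadjusted p under 0.05 and 0 by DESeq2). From 1w to 6w the Sertoli and peritubular lists fell 10.2-fold and 26.5-fold in RPM, and 3.03-fold and 7.89-fold on TMM-scaled counts. The peritubular sum rests largely on Col3a1, which held 6168 of its 7669 RPM at 1w. Acta2, of the same list, went from 868 to 77.4 RPM. The Leydig list fell 1.83-fold in RPM, and on TMM-scaled counts its 1w level was 0.546 times that of 6w, so its direction depends on the scaling. Sox9, which marks Sertoli cells, and Amh, which marks immature ones, went from 83.1 and 63.9 RPM at 1w to 1.00 and 0.143 RPM at 6w. Other markers of the list rose first, as Clu, Cldn11, Amhr2 and Gata1 were highest at 2w and Trf at 3w. Clu went from 1859 RPM at 1w to 3362 at 2w and 239 at 6w.

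Germ cell markers parted by stage. The 10 spermatogonia markers summed to 585 to 2081 RPM in 1–3 week and 124 to 264 RPM in 4–6 week samples, with 4 of 7 called lower (22.5% of all genes tested). The 9 spermatid markers summed to 67.5 to 534 RPM and 83829 to 187063 RPM, with 8 of 8 called higher (17.7% of all genes tested). The 6 vascular, blood and immune markers summed to 37.4 to 81.8 RPM and 9.43 to 15.7 RPM, and the 9 spermatocyte markers to 1102 to 11983 RPM and 4858 to 8516 RPM, with 1 of 8 called higher. Single genes made up most of some sums. At 2w Uchl1 held 1851 of the 2081 RPM of spermatogonia markers, and Sycp3 9621 of the 9738 RPM of spermatocyte markers. The part of the cell types in the changes of the imprinted genes was not tested.

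**Figure D5:**
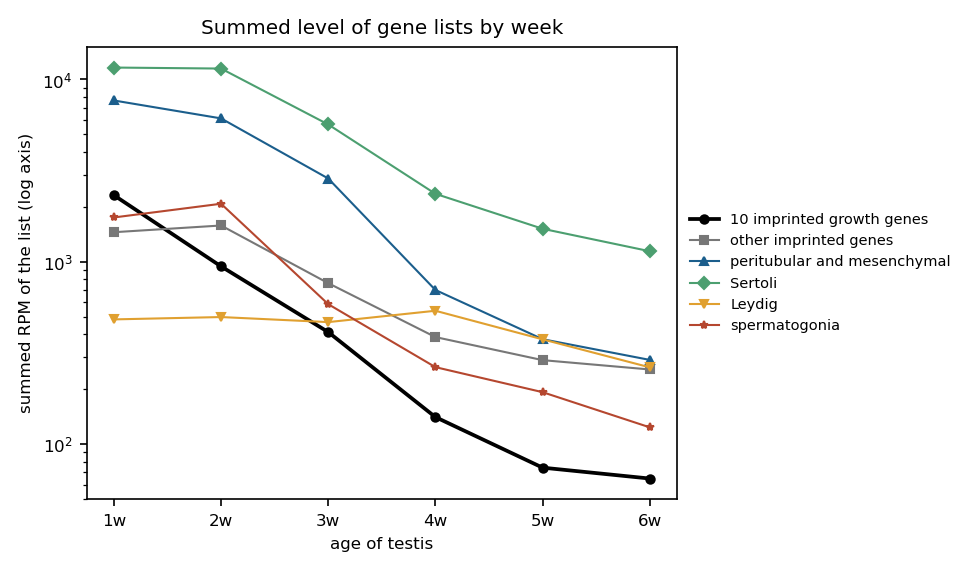
Summed RPM (y axis, log scale) of the 10 imprinted growth genes (thick line) and of 5 other gene lists against age in weeks (x axis), 1 library per point. The 10 genes fell from 2317 to 64.7 RPM, and the sums of peritubular and mesenchymal, Sertoli and spermatogonia markers fell too. The sum of Leydig markers, of which some rose and others fell, lay between 264 and 539 RPM.

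The genes whose course was most like the mean of the 8 tested genes were Tab2, Dhh, Fgd1, Grhpr and Cnn3. Likeness was Pearson's r of centred log2 TMM-scaled counts over the 6 libraries, among 7400 other genes with a mean of 50 or more reads, and r was 0.998 or more in these 5. As 6 points share libraries and a common course with age, high values are frequent, and r is given as a description. Dhh encodes the hedgehog ligand of Sertoli cells, and its reads numbered 16981, 6805, 2921, 1225, 675 and 595 from 1w to 6w. Cnn3, an actin-binding calponin, had 2393, 939, 266, 96, 56 and 41 reads.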

How the data were processed

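The deposited table holds raw counts of PASS reads per pA, 1 column per library, which the authors made by mapping 3'READS reads to mm9 with Bowtie 2 (version not given in the sources used here), keeping reads with at least 2 unaligned Ts and clustering pAs within 24 nt. PCR duplicates were not marked by molecular identifiers, so intervals cover counting error only. Samples were grouped by age, with 1 library per week. Reads of a gene were summed over pAs of its 3'-most exon, without the 384 pAs that the table gives to several genes. Library totals for RPM are those listed by the study.

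Expression was tested with edgeR 4.0.16 (quasi-likelihood, TMM, filterByExpr, Benjamini-Hochberg over all genes) in R 4.3.3, with DESeq2 1.42.0 as an alternative. SE was derived from the log2 change and F. Isoform ratios used the 2 3'-most exon pAs with most reads, a term per library, and at least 20 reads of both in every library. The same test of upstream pAs took 2437 genes, none of them of the 10. Scripts were tested on simulated data. Positions, exons and stop codons are from GENCODE M1 on the mm9 genome. p-values measure the spread between libraries of different weeks, not between animals. The 10 genes and all lists were chosen with earlier results of these data known. Named were all 10 genes, the 5 other imprinted genes called with the largest change in each direction and any over 100 RPM, the IGF axis genes called (Igf2r, the members of marker lists and Prm1 were named after their values were seen), and the 5 genes most alike in course.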

Additional observations from a re-analysis of the deposited data

How the results depend on the processing

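Across alternatives no change in expression of the 8 genes turned in direction. The 6 genes called lower by edgeR became 7 with DESeq2, with read totals, with numeric age and with 1w–2w against 5w–6w, 5 without a filter on low counts, and 0 to 7 with a library left out; the gene called higher became 0 with read totals (0 also at an unadjusted p under 0.05) and 0 to 1 with a library left out. Other imprinted genes called lower were 17 with read totals and 0 to 12 with a library left out; those called higher were 8 with DESeq2, 6 with numeric age, 8 with 1w–2w against 5w–6w, 0 with read totals and 0 to 8 with a library left out. IGF axis genes called lower were 12 with read totals, 7 with numeric age, 9 with 1w–2w against 5w–6w and 0 to 9 with a library left out; those called higher were 0 with read totals and 0 to 1 with a library left out. Where these counts were 0 without 5w, edgeR had 5 of the 10 growth genes, 10 other imprinted and 2 IGF axis genes lower at an unadjusted p under 0.05. These counts are to be read against those of all genes. Called lower were 6183 of 11269 with read totals, 3520 of 11269 with numeric age and 4020 of 12154 with 1w–2w against 5w–6w. Called higher in these 3 settings were 1082, 3256 and 4294. DESeq2 called 2339 of 14445 genes lower and 3188 higher. Without a filter on low counts edgeR called 2288 of 16197 lower and 2216 higher. With a library left out, it called 0 (without 5w) to 4123 (without 3w) of all genes lower. Those called higher then numbered 338 (without 5w) to 4392 (without 3w). Both isoform ratios kept their call throughout. No paired analysis was possible because each week has 1 library. Depth limits Meg3, Peg3 and all shares of Dlk1, Mest and Ndn after 3w. RPM on reads of the deposited table were 1.20 to 1.30 times higher.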
